A study of Mus musculus with 24 samples.

Results

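The response of mouse granulosa cells to blebbistatin was described in 8 of the 24 RNA sequencing libraries of the study: 4 of granulosa cells from follicles grown with 20 µM blebbistatin and 4 from follicles grown without it, chosen by their labels alone. All follicles were wild type (WT), were enclosed in alginate, a soft polysaccharide gel, and were grown to day 3 in serum-containing medium with insulin, transferrin, selenium and follicle-stimulating hormone (FSH) at 50 mIU/ml. Blebbistatin was given in the medium for that culture, and the labels do not say whether the control medium held its solvent. The 16 libraries set beside these 8 were granulosa cells from follicles grown with dextran at 10 kPa (4 libraries) and oocytes of the blebbistatin, control and dextran groups (4 libraries each). Granulosa cells were pooled for each library from follicles that had passed 180 µm, so a library holds only follicles that grew. The age of the animals is not among the labels. The replicates are labelled biological, but not as coming from separate animals or cultures, so that a p-value here measures only how far these libraries differ, which may be technical.

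Blebbistatin inhibits the ATPase of myosin II, the motor that pulls on actin filaments and so gives cells their contractility and surface tension. Actin assembly and tension are read by transcription through serum response factor (SRF), whose coactivators are held back by free actin monomers, and through YAP and TAZ, coactivators that enter the nucleus of stretched cells. Granulosa cells surround the oocyte, answer to FSH, make inhibins, activins and anti-Müllerian hormone, and feed the oocyte through gap junctions.

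Blebbistatin libraries held 16835992 to 19145455 counts, and control libraries 16432298 to 22431013. Genes with at least 1 count numbered 14538 to 21042 per blebbistatin library and 20730 to 24297 per control library. Of 78298 genes in the table, 15370 passed the filter on low counts and were tested. Ftl1, the ferritin light chain gene, alone passed an adjusted p of 0.05 in edgeR, which is 0.00651% of the genes tested, and no gene passed in the lower direction. In all, 824 genes were higher and 778 lower at an unadjusted p under 0.05, the level used below to count members of gene lists. These shares, 5.36% of all genes higher with Ftl1 counted and 5.06% lower, are the background set beside the count of each list, and no gene other than Ftl1 is called here from such a p. The lists were chosen with earlier results of these data known, so their counts are a description and not independent support. Limma voom called 1 gene, limma voom with quality weights 18 higher and 10 lower (0.117% and 0.0651%), and DESeq2 213 higher and 164 lower (1.39% and 1.07%). Without blebbistatin libraries 1 and 2 edgeR called 11 higher and 15 lower of 16940 genes (0.0649% and 0.0885%). The 28 genes of voom with quality weights were all among those of DESeq2, that is 100% of the shorter list and 7.43% of the longer.

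The granulosa identity of the libraries was checked with 4 markers. Inha, which encodes the alpha subunit of inhibin, had 10249, 13087, 11142 and 12564 CPM (counts per 1000000 counts of the library, TMM-scaled) in blebbistatin libraries 1 to 4, against 16070, 15666, 18206 and 16453 CPM in control libraries 1 to 4. Every blebbistatin library lay below every control library, with a log2 fold change of -0.50 ± 0.11 (SE) and an adjusted p of 0.118. The FSH receptor gene Fshr had 8.02, 23.6, 19.0 and 52.4 CPM with blebbistatin and 56.9, 77.4, 73.7 and 63.7 CPM in control. Its groups did not overlap either, and its log2 fold change was -1.40 ± 0.49 with an adjusted p of 0.331. Amh (29.8 to 142 CPM against 81.0 to 339 CPM) and Foxl2, a transcription factor that maintains granulosa identity (16.4 to 22.8 CPM against 13.0 to 31.4 CPM), overlapped between the groups. All 4 markers were thus present in all 8 libraries, and in sum they reached 10370 to 13271 CPM with blebbistatin against 16056 to 18408 CPM in control. A wider list of 15 granulosa genes summed to 13369 to 16340 CPM against 18317 to 24155 CPM. Of these 15, 0 were higher and 7 lower at an unadjusted p under 0.05.

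Markers of other cell types differed between libraries. The 11 macrophage genes summed to 702 and 1036 CPM in blebbistatin libraries 1 and 2, to 2.63 and 5.23 CPM in blebbistatin libraries 3 and 4, and to 1.54 to 11.3 CPM in control libraries. The 12 genes of stroma and fibroblasts summed to 305 to 1110 CPM with blebbistatin against 8.41 to 361 CPM in control, and the 10 genes of smooth muscle and pericytes to 235 to 848 CPM against 44.1 to 231 CPM. Oocyte markers summed to 38.0 CPM in blebbistatin library 1, to 3.12 to 5.73 CPM in blebbistatin libraries 2 to 4 and to 3.04 to 9.32 CPM in control libraries. In bulk RNA, fewer cells of a type and less RNA per cell cannot be told apart. The part of these markers in the results below was not tested, and blebbistatin libraries 1 and 2 were left out together as a check.

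**Figure D1:**
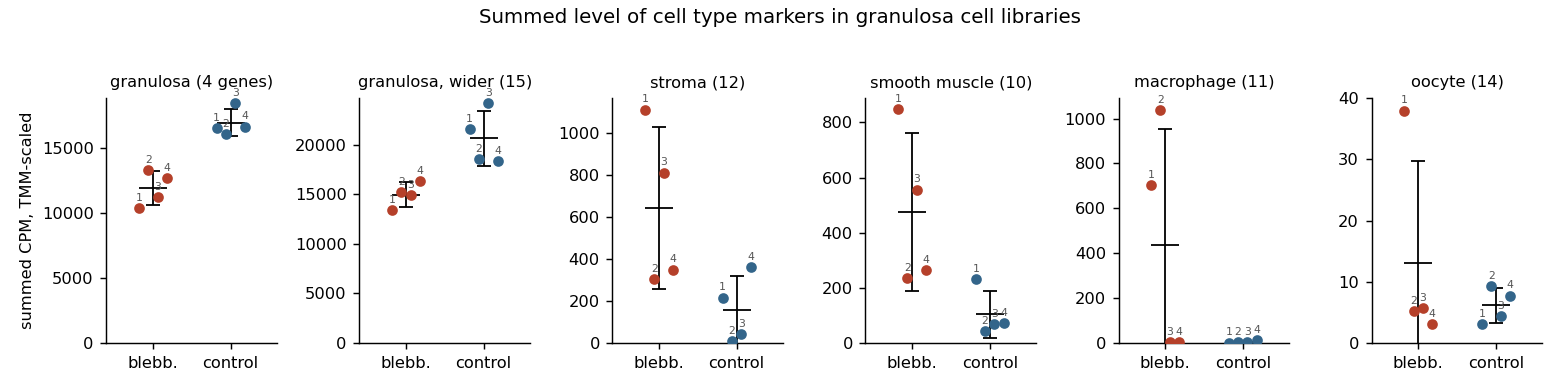
Summed CPM of the genes of 6 marker lists in each granulosa cell library (y axis, TMM-scaled), with blebbistatin in red and control in blue; digits are library numbers, horizontal lines means and bars 1 SD (n = 4), with bars that would pass below 0 ended there. The macrophage genes reach 702 and 1036 CPM in blebbistatin libraries 1 and 2 and stay at or under 11.3 CPM in all others.

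Ftl1 stood at the head of the comparison. It encodes the light chain of ferritin, the shell in which cells store iron. It had 3872, 4376, 3464 and 3324 CPM in the blebbistatin libraries, against 1805, 1915, 1533 and 2130 CPM in the control libraries. The lowest blebbistatin library lay well above the highest control library. Ftl1 averaged 3759 ± 472 CPM with blebbistatin and 1846 ± 248 CPM in control (SD, n = 4 each). It rose with a log2 fold change of 1.03 ± 0.12 and an adjusted p of 0.0214, and over 22 alternative analyses the log2 fold change kept within 0.89 and 1.12 and the adjusted p within 9.79e-13 and 0.179. The adjusted p was 0.0325 without blebbistatin libraries 1 and 2, which hold the macrophage genes. It missed the threshold in 8 of the 22, among them the fit of only the 8 libraries (0.179) and those in which control library 1 (0.132), control library 2 (0.0825), control library 3 (0.0605), blebbistatin library 3 (0.0665) or dextran library 2 (0.0548) or 4 (0.0526) was left out. The processed copy Ftl1-ps1 was counted at 0.175 to 0.221% of Ftl1 with blebbistatin and 0.132 to 0.178% in control, and reads of such copies can be assigned to either gene. Over the 12 granulosa cell libraries, some unnamed or predicted genes followed Ftl1 more closely. Their correlations were 0.990, 0.974 and 0.952, against 0.928 for Ftl1-ps1. Whether they are copies of Ftl1 was not tested, so the share of such reads is not known.

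The heavy chain gene Fth1, whose product oxidises iron for storage, had 2252, 2867, 1918 and 1917 CPM with blebbistatin against 1229, 1323, 1074 and 1750 CPM in control. The groups did not overlap, and the log2 fold change was 0.74 ± 0.16 with an adjusted p of 0.150. Hmox1, haem oxygenase 1, which frees iron from haem, had 70.3, 119, 86.2 and 91.0 CPM against 45.4, 30.7, 38.6 and 38.4 CPM. Here too every blebbistatin library was above every control library (log2 fold change 1.26 ± 0.23, adjusted p 0.102). Slc40a1, the iron exporter ferroportin, had 165 to 449 CPM against 70.8 to 184 CPM, with groups that overlapped. In all, 5 of 22 tested genes of iron handling were higher at an unadjusted p under 0.05 and none lower, and the list's median log2 fold change was 0.08, against -0.05 over all genes.

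Genes of oxidant defence were followed in 2 lists. The first held 26 tested genes of glutathione defence and of NRF2, the transcription factor that answers oxidants. Of these, 9 were higher at an unadjusted p under 0.05 and 0 lower, with a median log2 fold change of 0.21. Without overlap between the groups, 4 were higher and 1 lower, against 2.46% and 4.14% of all genes tested. The glutathione transferase gene Gstm1 had 987, 797, 1109 and 764 CPM with blebbistatin against 490, 247, 320 and 664 CPM in control (log2 fold change 1.09 ± 0.32, adjusted p 0.253). Osgin1, a growth inhibitor induced by oxidative stress, had 2.76 to 27.3 CPM against 0 to 1.96 CPM, also without overlap. Nqo1, a quinone reductase, overlapped between the groups at 10.4 to 53.2 CPM against 2.98 to 16.8 CPM. Catalase (Cat), which breaks down hydrogen peroxide in peroxisomes, had 235, 223, 305 and 271 CPM against 157, 166, 158 and 202 CPM. All blebbistatin libraries exceeded all control libraries, with a log2 fold change of 0.60 ± 0.12 and an adjusted p of 0.102.

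The list of peroxiredoxin, thioredoxin and related genes had a median log2 fold change of -0.04, beside -0.05 over all genes, and the lower members included 2 peroxiredoxins, enzymes that reduce peroxides at a cysteine. Prdx4, the peroxiredoxin of the endoplasmic reticulum, had 182, 204, 166 and 191 CPM with blebbistatin against 269, 293, 286 and 307 CPM in control. The spread within each group was small beside the gap, and the log2 fold change was -0.64 ± 0.10 with an adjusted p of 0.0770. Prdx2 (215 to 385 CPM against 411 to 462 CPM) and the cytosolic superoxide dismutase gene Sod1 (123 to 166 CPM against 166 to 186 CPM) were also lower in every blebbistatin library than in any control library. Of the 17 genes of the list, 1 (Cat) was higher and 4 were lower at an unadjusted p under 0.05; the remaining one of the 4, Txnip, which inhibits thioredoxin, had 68.0 to 111 CPM against 97.1 to 202 CPM.

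**Figure D2:**
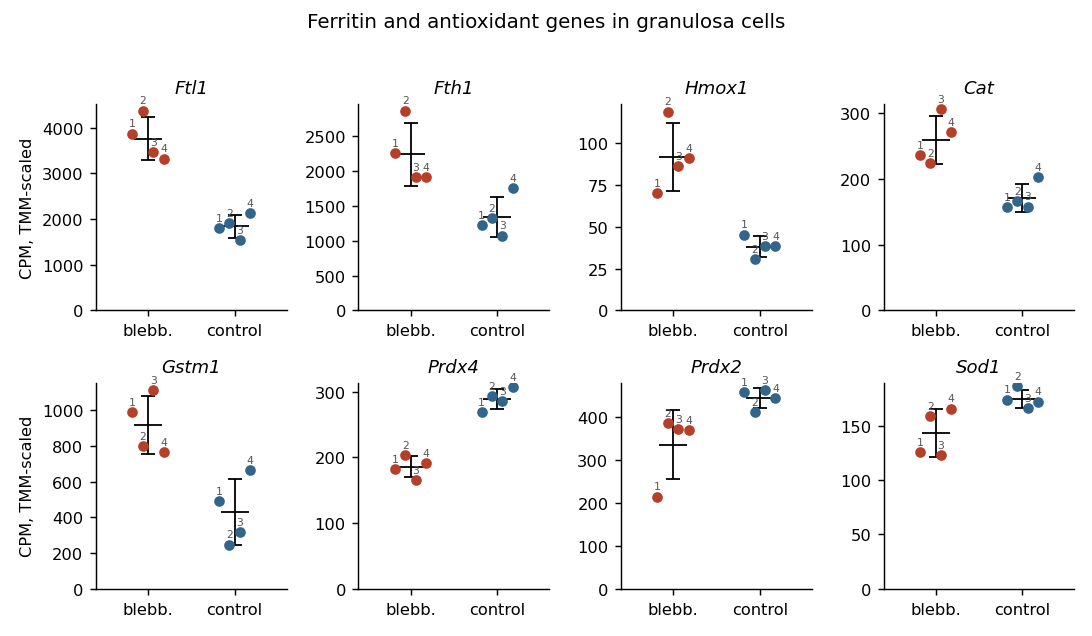
CPM of 8 ferritin and antioxidant genes in each granulosa cell library (y axes, TMM-scaled and starting at 0), with blebbistatin in red and control in blue; digits are library numbers, horizontal lines means and bars 1 SD (n = 4). Ftl1 lies at 3324 to 4376 CPM with blebbistatin against 1533 to 2130 CPM in control, and Prdx4 at 166 to 204 CPM against 269 to 307 CPM.

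Many genes of the actin cytoskeleton stood higher with blebbistatin. Of 34 tested actin filament genes and SRF targets, 17 were higher and 2 lower at an unadjusted p under 0.05, and the median log2 fold change was 0.47. None passed after adjustment over all genes. Without blebbistatin libraries 1 and 2 the counts were 13 higher and 2 lower, with a median of 0.50, where the background of that fit was 6.61% of all genes higher and 9.78% lower. Of the 34 genes, 7 were higher and 0 lower without overlap between the groups, against 2.46% and 4.14% of all genes tested.

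Tropomyosin 1 (Tpm1), a coiled coil that lies along actin filaments and governs access of myosin, had 702, 443, 820 and 495 CPM with blebbistatin against 235, 107, 135 and 230 CPM in control. The groups were far apart, and the log2 fold change was 1.80 ± 0.32 with an adjusted p of 0.102. Fhl2, a LIM protein of focal adhesions and an SRF target, had 66.2, 24.8, 74.9 and 40.6 CPM against 12.8, 2.89, 10.2 and 15.8 CPM (log2 fold change 2.31 ± 0.49, adjusted p 0.118). Calponin 2 (Cnn2), which binds actin and dampens myosin, had 90.6, 28.3, 42.7 and 26.4 CPM against 23.3, 2.62, 6.35 and 5.82 CPM. Neither gene overlapped between the groups, although control library 1 came near the lowest blebbistatin libraries for Cnn2. The cytoplasmic actin genes differed less. Actg1 had 657, 693, 746 and 831 CPM against 497, 444, 491 and 660 CPM, which overlapped narrowly (log2 fold change 0.48 ± 0.13, adjusted p 0.232). Actb had 1769 to 2145 CPM against 1453 to 1908 CPM, also with overlap. Zyx, zyxin of stress fibres, was at 143 to 223 CPM against 109 to 139 CPM, and Actn1, an actin cross-linker, at 33.6 to 64.5 CPM against 21.5 to 34.6 CPM. Fhl1, a muscle LIM protein, stood lower at 0 to 6.36 CPM against 6.07 to 76.2 CPM. Srf itself was at 0 to 6.37 CPM against 1.74 to 3.99 CPM and overlapped.

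Several members of the list are also smooth muscle genes. Smooth muscle actin Acta2 had 475, 102, 275 and 126 CPM with blebbistatin against 146, 14.3, 29.7 and 22.7 CPM in control, and transgelin (Tagln) 73.8, 22.1, 68.4 and 23.4 CPM against 25.1, 2.08, 7.10 and 4.80 CPM. In both groups the level of these genes followed the libraries, highest in blebbistatin libraries 1 and 3 and in control library 1. The summed smooth muscle markers, which include both genes, were highest in the same libraries, at 848, 235, 556 and 263 CPM in blebbistatin libraries 1 to 4 and 231, 44.1, 68.2 and 73.2 CPM in control libraries 1 to 4. Acta2 and Tagln make up much of that sum, so this likeness was in large part set by the list and is no separate evidence. Of the defining genes, Myh11 reached 0 to 30.7 CPM against 0.27 to 1.31 CPM. Whether the actin genes moved within granulosa cells or with such cells was not tested.

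SRF binds the CArG box, and the sequences before the starts of the listed genes were searched for it because the list rests on that factor. Only exact matches were counted as a box, that is CC, a core of A and T alone, and GG. Of the 34 genes, 30 matched an entry of the RefSeq promoter table (GRCm38.p6, 250 bases before to 50 after each start), and 7 of these, 23.3%, held a CArG box, against 1.81% of all 27025 symbols in the table. The list was drawn up partly from SRF targets, so this share describes the list. Boxes were found in 3 of the 15 matched genes that were higher at an unadjusted p under 0.05 and in 4 of the 15 others, and the box did not separate them. Tpm1 and Acta2 had no exact match in this window, and looser forms of the box were not searched for in any gene. The windows of Fhl2, Cnn2 and Actg1, the 3 higher members with a box, are shown together with that of Srf. They read 5′ to 3′ on the strand of the gene, 1 box of each is in capitals, and each ends at or before the start of transcription. The Srf window holds another box, in lower case, from 82 to 73 bases before the start, and Fhl2 has another from 96 to 87 bases before a different start, not shown.
Fhl2 (chr1:43163962-43164037, minus strand, box from 31 to 22 bases before the start): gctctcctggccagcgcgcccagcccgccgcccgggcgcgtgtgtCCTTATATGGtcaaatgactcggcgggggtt
Cnn2 (chr10:79988499-79988598, plus strand, box from 56 to 47 bases before the start): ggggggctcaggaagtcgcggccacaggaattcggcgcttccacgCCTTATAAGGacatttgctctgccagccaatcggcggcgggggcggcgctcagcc
Actg1 (chr11:120348531-120348630, minus strand, box from 90 to 81 bases before the start): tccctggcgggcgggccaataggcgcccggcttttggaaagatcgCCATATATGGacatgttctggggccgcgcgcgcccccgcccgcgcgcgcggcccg
Srf (chr17:46556170-46556269, minus strand, box from 62 to 53 bases before the start): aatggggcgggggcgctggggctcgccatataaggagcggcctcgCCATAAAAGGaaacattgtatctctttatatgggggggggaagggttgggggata

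**Figure D3:**
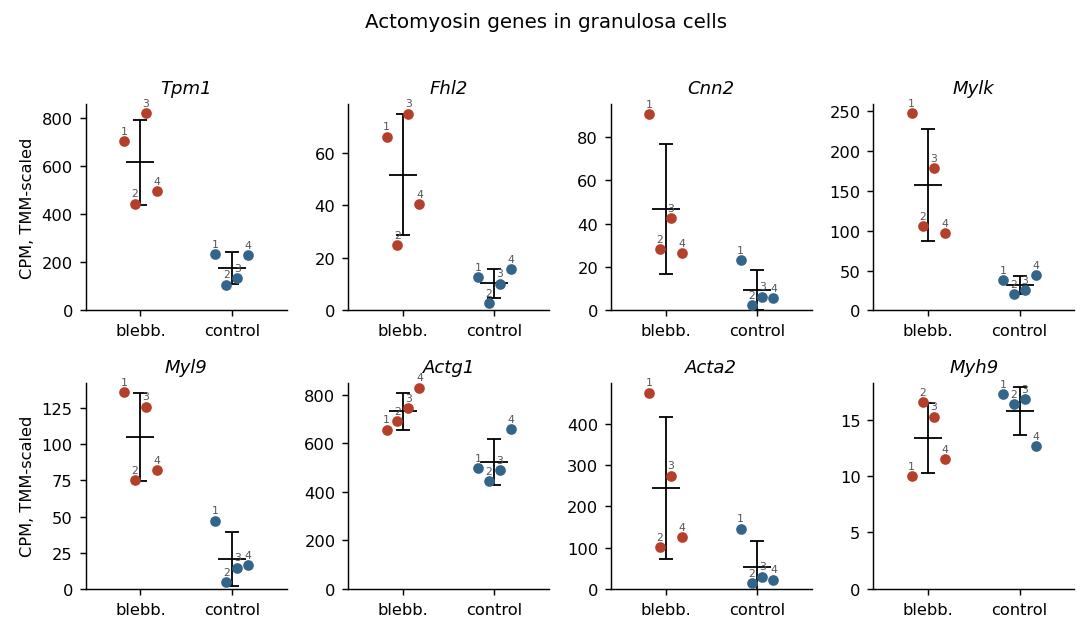
CPM of 8 actin and myosin genes in each granulosa cell library (y axes, TMM-scaled and starting at 0), with blebbistatin in red and control in blue; digits are library numbers, horizontal lines means and bars 1 SD (n = 4), with bars that would pass below 0 ended there. Tpm1 lies at 443 to 820 CPM with blebbistatin against 107 to 235 CPM in control, while Myh9 overlaps at 10.0 to 16.6 CPM against 12.7 to 17.3 CPM.

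The heavy chain genes of myosin II, the target of the drug, did not separate the groups. The heavy chain genes Myh9 (10.0, 16.6, 15.3 and 11.5 CPM with blebbistatin against 17.3, 16.4, 16.8 and 12.7 CPM in control) and Myh10 (109, 102, 109 and 80.8 CPM against 74.0, 93.7, 91.3 and 106 CPM) overlapped between the groups. Their log2 fold changes were -0.24 ± 0.23 and 0.14 ± 0.13, with adjusted p of 0.760 and 0.765. Myh14 did not pass the filter. Among the regulatory light chains, Myl9 had 136, 75.3, 126 and 82.4 CPM against 47.2, 4.52, 14.7 and 16.4 CPM, with no overlap (log2 fold change 2.34 ± 0.83, adjusted p 0.346). Myl12a was at 442 to 520 CPM against 368 to 442 CPM and Myl12b at 91.5 to 119 CPM against 104 to 113 CPM. Mylk, the kinase that activates myosin by phosphorylating its regulatory light chain, had 247, 105, 179 and 96.9 CPM against 38.3, 20.5, 25.7 and 44.2 CPM. The lowest blebbistatin library was far above the highest control library, and the log2 fold change was 2.29 ± 0.53 with an adjusted p of 0.173. Mylk and Myl9 are abundant in smooth muscle, and both were highest in blebbistatin libraries 1 and 3, as the smooth muscle markers were. Mylk is itself in that marker list, so for Mylk the likeness was in part set by the list. The kinase genes Rock1 (34.3 to 63.4 CPM against 40.6 to 51.2 CPM) and Rock2 (26.2 to 74.3 CPM against 34.9 to 46.6 CPM) overlapped.

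Targets of YAP and TAZ were spread widely. Of 22 tested, 5 were higher and 0 lower at an unadjusted p under 0.05, with a median log2 fold change of 0.72, which was 0.45 without blebbistatin libraries 1 and 2. For dextran over control the median was 0.37, and for blebbistatin over dextran it was -0.04. The classical targets Ccn1 (10.4 to 81.6 CPM with blebbistatin against 8.95 to 37.6 CPM in control) and Ccn2 (0.93 to 12.2 CPM against 0.18 to 3.60 CPM), which encode matricellular proteins, overlapped between the groups, and Ankrd1 was at 0 to 8.13 CPM against 0 to 2.01 CPM. Ahnak, a giant scaffold protein of the cell cortex, had 65.9, 27.0, 35.2 and 45.8 CPM against 27.8, 15.6, 14.3 and 29.9 CPM (log2 fold change 0.99 ± 0.31, adjusted p 0.276). Yap1 (11.7 to 28.7 CPM against 22.4 to 25.9 CPM) and Wwtr1, the gene of TAZ (33.7 to 58.5 CPM against 28.2 to 47.8 CPM), overlapped.

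Adhesion genes showed a similar pattern. Of 27 focal adhesion and integrin genes, 8 were higher and 0 lower at an unadjusted p under 0.05, with a median log2 fold change of 0.17. The median of the same list was 0.25 for dextran over control and 0.01 for blebbistatin over dextran. Itga5, the alpha chain of the fibronectin receptor, had 53.8, 28.2, 40.2 and 16.9 CPM with blebbistatin against 12.8, 12.1, 14.4 and 16.4 CPM in control. The groups separated by a narrow margin, with a log2 fold change of 1.32 ± 0.31 and an adjusted p of 0.172. Tns3, a tensin that links integrins to actin, was at 11.1 to 36.9 CPM against 6.40 to 9.06 CPM. Parva, parvin of the integrin-linked kinase complex, was at 39.8 to 102 CPM against 29.1 to 40.1 CPM.

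Among 18 genes of the basement membrane, the sheet that encloses the granulosa layer, 7 were higher and 1 lower at an unadjusted p under 0.05. Their median log2 fold change of 0.67 was 0.12 without blebbistatin library 3 and 1.22 without control library 4. Collagen IV genes led the list. Col4a4 had 138, 20.0, 51.2 and 35.4 CPM with blebbistatin against 3.60, 5.61, 3.11 and 9.54 CPM in control. Every blebbistatin library was above every control library, with a log2 fold change of 3.49 ± 0.61 and an adjusted p of 0.102. Col4a3 (6.95 to 38.4 CPM against 2.71 to 5.10 CPM), Col4a1 (20.0 to 179 CPM against 1.94 to 17.6 CPM) and Col4a2 (25.7 to 105 CPM against 4.03 to 23.8 CPM) did not overlap either. Sparc, a collagen-binding protein of basement membranes, had 1024, 260, 715 and 297 CPM against 155, 41.2, 87.8 and 148 CPM (log2 fold change 2.41 ± 0.49, adjusted p 0.110). The laminin gene Lamb2 stood lower, at 10.5 to 19.8 CPM against 18.9 to 29.1 CPM. The summed stroma markers were at 1110, 305, 811 and 349 CPM in blebbistatin libraries 1 to 4. In control libraries 1 to 4 they were at 216, 8.41, 41.2 and 361 CPM. The part of stromal cells in the basement membrane genes was not tested.

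The interstitial matrix held genes in both directions. Of 22 tested, 5 were higher and 3 lower at an unadjusted p under 0.05, with a median log2 fold change of 1.54, and 2.30 without control library 4. Thbs2, thrombospondin 2, had 25.6, 7.24, 49.6 and 42.9 CPM with blebbistatin against 0.65, 0.32, 1.62 and 3.12 CPM in control (log2 fold change 4.46 ± 0.85, adjusted p 0.102). Its relative Thbs1 went the other way, at 452, 237, 284 and 386 CPM against 516, 400, 943 and 1037 CPM, with overlap and a log2 fold change of -1.09 ± 0.30 (adjusted p 0.232). Fbln5, a fibulin needed for elastic fibres, was at 4.57 to 69.2 CPM against 1.02 to 3.80 CPM, whereas Fbln1 was at 68.3 to 185 CPM against 239 to 276 CPM. Tnc, tenascin C, was at 9.98 to 70.5 CPM against 7.46 to 14.2 CPM. Beside these, Col1a1, a collagen of fibroblasts and a stroma marker, had 447, 96.7, 305 and 96.5 CPM against 94.0, 2.98, 5.75 and 78.4 CPM. As Col1a1 is itself a stroma marker, it cannot show whether the other matrix genes moved with the stroma markers. The part of those markers was not tested.

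Enzymes that shape the matrix included Lox, which cross-links collagen, at 212, 1.58, 27.4 and 31.1 CPM with blebbistatin against 9.20, 3.66, 5.38 and 8.94 CPM in control. The value of 1.58 CPM in blebbistatin library 2 lay below every control library. Timp3, an inhibitor of metalloproteinases, was at 17.3 to 236 CPM against 4.34 to 33.9 CPM, and Mmp11, a stromelysin, at 207 to 372 CPM against 114 to 186 CPM. Of 22 genes of this list, 5 were higher and 0 lower at an unadjusted p under 0.05.

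**Figure D4:**
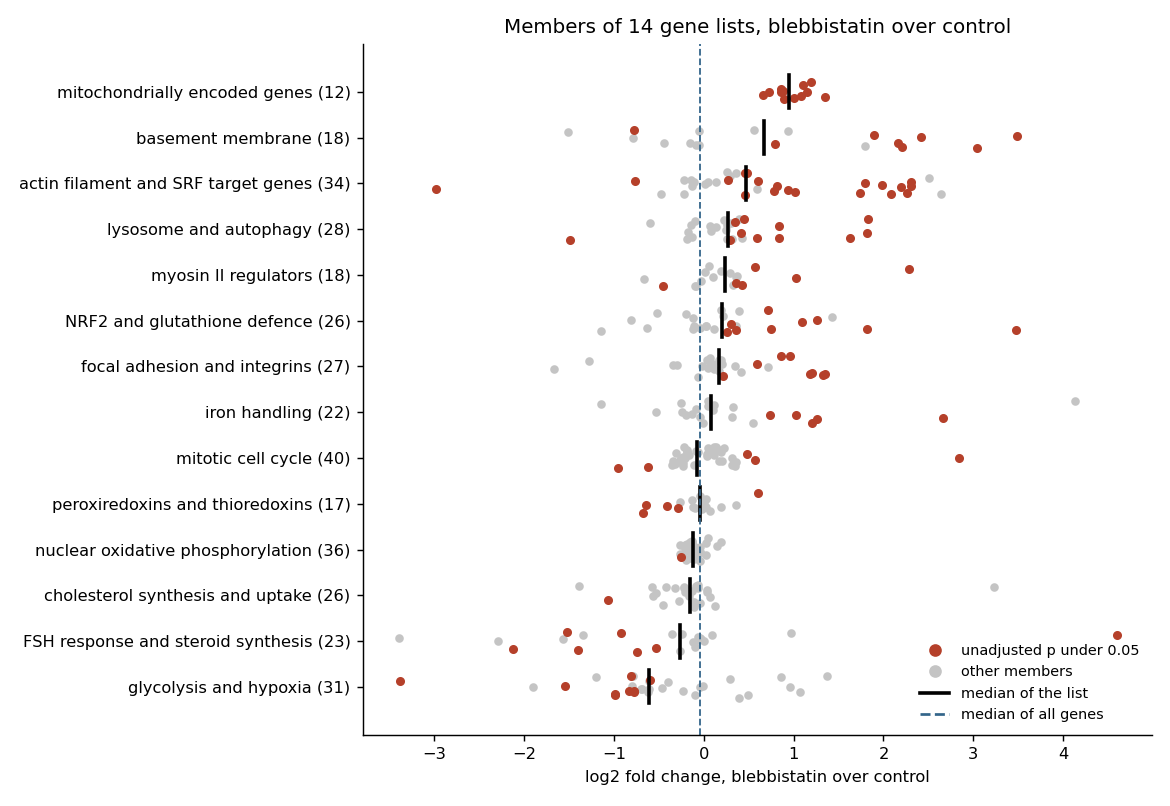
The log2 fold change of blebbistatin over control (x axis) for each tested member of 14 gene lists (rows, number tested in brackets); red points have an unadjusted p under 0.05, black lines are list medians and the dashed line is the median of all 15370 genes, -0.05. All 12 mitochondrially encoded genes lie above 0, 17 of 34 actin genes are red on the right, and the list of glycolysis and hypoxia has the lowest median of those drawn, -0.61.

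Genes of the inhibin and activin subunits stood lower with blebbistatin. Of 28 genes of inhibin, activin and AMH signalling, 3 were higher and 4 lower at an unadjusted p under 0.05. Inhbb, which encodes the beta B subunit of inhibin B and activin B, had 108, 77.1, 86.7 and 125 CPM with blebbistatin against 805, 361, 727 and 194 CPM in control. All blebbistatin libraries were below all control libraries, with a log2 fold change of -2.40 ± 0.49 and an adjusted p of 0.110. Inhba, the beta A subunit, had 198, 163, 336 and 353 CPM against 1383, 344, 2537 and 321 CPM, which overlapped (log2 fold change -2.13 ± 0.63, adjusted p 0.256). Control libraries 1 and 3 carried most of the control level of both genes. The dextran group, whose medium had no blebbistatin, averaged 180 ± 90.0 CPM of Inhbb and 441 ± 231 CPM of Inhba (SD, n = 4). The receptor gene Bmpr2 was at 120 to 229 CPM against 197 to 397 CPM.

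The 3 higher members of that list included direct targets of bone morphogenetic protein (BMP) signalling. Id1, an inhibitor of helix-loop-helix factors, had 106, 43.8, 63.6 and 57.0 CPM with blebbistatin against 24.8, 24.1, 26.9 and 26.1 CPM in control. The control libraries were tightly grouped and all below, giving a log2 fold change of 1.41 ± 0.25 and an adjusted p of 0.102. Id2 had 170, 97.4, 124 and 116 CPM against 47.0, 50.4, 79.0 and 78.4 CPM, again with no overlap (log2 fold change 0.99 ± 0.20, adjusted p 0.110). Both genes were also above the control mean with dextran, at 78.6 ± 19.1 CPM for Id1 and 155 ± 8.66 CPM for Id2 (SD, n = 4).

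Of 23 genes of the FSH response and steroid synthesis, 1 was higher and 6 lower at an unadjusted p under 0.05, with a median log2 fold change of -0.27. The list's median was -0.22 for dextran over control and -0.29 for blebbistatin over dextran. Prkar2b, a regulatory subunit of protein kinase A that FSH induces, had 77.0, 94.5, 107 and 133 CPM with blebbistatin against 211, 114, 259 and 192 CPM in control. The groups overlapped in 1 library of each. Hsd17b1, which makes oestradiol from oestrone, had 349, 624, 793 and 943 CPM against 1378, 1039, 1493 and 636 CPM. Hsd3b1, an early step of steroid synthesis, ranged from 336 to 1160 CPM against 742 to 3594 CPM. Aromatase (Cyp19a1) was at 0 to 3.00 CPM against 0 to 17.5 CPM, Cyp11a1 at 0 to 4.34 CPM against 0.37 to 1.80 CPM and Star at 0 to 2.25 CPM against 1.94 to 8.10 CPM. These genes of steroid synthesis were thus at or under 17.5 CPM in both groups. Without blebbistatin libraries 1 and 2 the counts of the list were 0 higher and 2 lower, against the background of that fit given above.

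Granulosa transcription factors moved little. Foxo1, which FSH restrains through AKT, had 192, 217, 242 and 233 CPM with blebbistatin against 269, 280, 316 and 252 CPM in control. Nr5a2, needed for ovulation, had 188, 202, 260 and 240 CPM against 281, 278, 299 and 275 CPM. Both were lower without overlap, with log2 fold changes of -0.34 ± 0.09 and -0.35 ± 0.12 and adjusted p of 0.232 and 0.305. They were 2 of the 20 genes of the list lower at an unadjusted p under 0.05, where 1 was higher, and without blebbistatin libraries 1 and 2 the counts were 0 and 0.

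**Figure D5:**
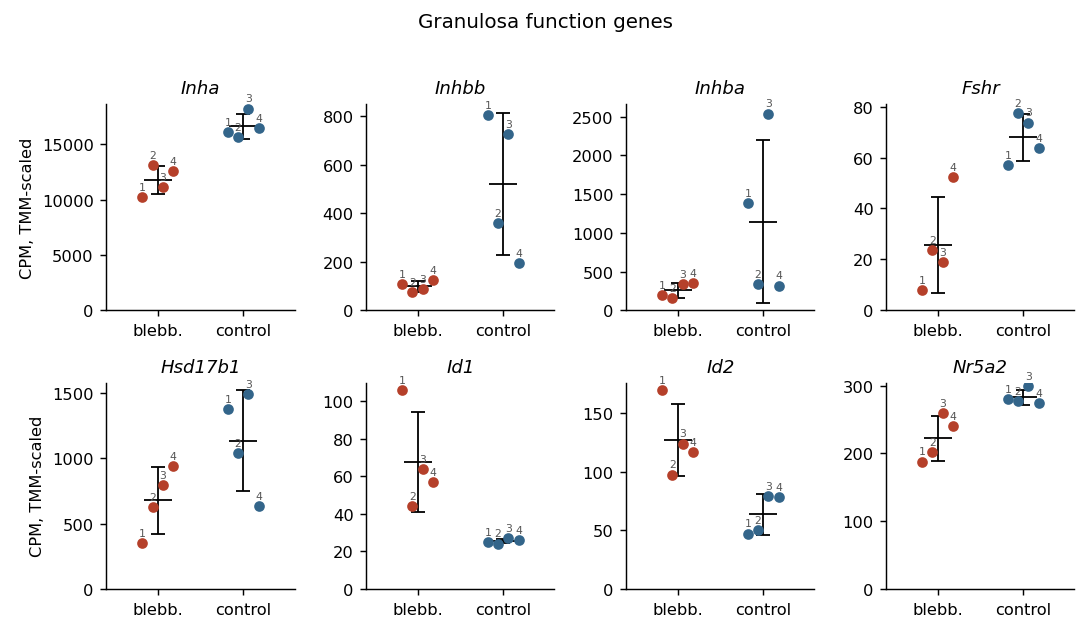
CPM of 8 genes of granulosa function in each granulosa cell library (y axes, TMM-scaled and starting at 0), with blebbistatin in red and control in blue; digits are library numbers, horizontal lines means and bars 1 SD (n = 4), with bars that would pass below 0 ended there. Inhbb lies at 77.1 to 125 CPM with blebbistatin against 194 to 805 CPM in control, and Id1 at 43.8 to 106 CPM against 24.1 to 26.9 CPM.

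Genes of contact between granulosa cells and with the oocyte gave 0 higher and 3 lower of 20 at an unadjusted p under 0.05. N-cadherin (Cdh2), the main cadherin of granulosa cells, had 68.1, 52.7, 39.98 and 31.3 CPM with blebbistatin against 102, 67.5, 126 and 97.4 CPM in control. Only blebbistatin library 1 reached into the control range, and the log2 fold change was -1.03 ± 0.26 with an adjusted p of 0.200. Gja1, connexin 43 of the gap junctions between granulosa cells, had 5511, 6956, 6768 and 7619 CPM against 7384, 7707, 9220 and 9482 CPM (log2 fold change -0.33 ± 0.11, adjusted p 0.308). Kitl, which encodes the growth factor that binds KIT on the oocyte, was at 88.3 to 224 CPM against 64.7 to 146 CPM. Occludin (Ocln), a tight junction protein, had 0 counts in all 4 blebbistatin libraries against 0.30 to 2.27 CPM in control. Counted over each group, Ocln had 0 against 117 counts. With 3 counts put in place of 0 as the floor, the control level was 33.8 times that of blebbistatin. This ratio covers counting error only, not the spread between libraries. Having 0 counts with blebbistatin, Ocln passed the filter on low counts only through control or dextran libraries. The Notch ligand gene Jag2 had 1 count with blebbistatin against 103 counts in control, a control level 89.3 times that of blebbistatin with an exact 95% counting interval of 15.7 to 3561. That interval pools the counts of each group, so it too covers counting error only and not the spread between libraries. Jag2 likewise passed the filter only through control or dextran libraries. Dhh, desert hedgehog, by which granulosa cells signal to theca cells, was at 62.7 to 89.7 CPM against 69.7 to 137 CPM.

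Among scarce genes, more were lower than higher. Of 2094 tested genes with a mean under 1 CPM, 124 (5.92%) were lower and 10 (0.48%) higher without overlap between the groups, and 48 were at 0 in all blebbistatin libraries against 3 at 0 in all control libraries. Of 4125 genes at 50 CPM or more, 146 (3.54%) were lower and 137 (3.32%) higher without overlap. Ocln and Jag2 belong to the scarcest stratum. Genes at 0 in all blebbistatin libraries passed the filter only through control or dextran libraries, so these counts are a description and in part set by the filter. Among the 2942 genes between 1 and 5 CPM, 137 were lower and 39 higher without overlap. Blebbistatin libraries detected fewer genes, as given above, and the part of that difference in these calls was not tested.

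Mitochondrial transcripts stood higher with blebbistatin. All 12 tested genes encoded by the mitochondrial genome were higher at an unadjusted p under 0.05, with a median log2 fold change of 0.95; they are cut from shared precursor transcripts and are not independent. The gene mt-Nd4l, a subunit of complex I, had 133, 77.0, 180 and 109 CPM with blebbistatin against 68.1, 61.1, 48.6 and 54.3 CPM in control. It alone of the 12 did not overlap between the groups (log2 fold change 1.11 ± 0.23, adjusted p 0.110). For mt-Co1, a subunit of complex IV, the values were 12449, 5798, 18276 and 10609 CPM against 5609, 7124, 3747 and 4758 CPM. Blebbistatin library 2 lay within the control range for that gene, as it did for mt-Nd5 (1499 to 4726 CPM against 823 to 1859 CPM). Mitochondrial genes took 3.86 to 9.53% of the counts of blebbistatin libraries and 2.60 to 4.52% of control libraries. Such a share also moves with RNA quality, whose part was not tested. The nuclear genes of oxidative phosphorylation did not follow, with 0 higher and 1 lower of 36 and a median log2 fold change of -0.11.

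Genes of glycolysis stood lower with blebbistatin. Of 31 genes of glycolysis and hypoxia, 0 were higher and 9 lower at an unadjusted p under 0.05. Their median log2 fold change of -0.61 was -0.40 without control library 3. The median of the same list was -0.40 for dextran over control and -0.10 for blebbistatin over dextran. Gapdh had 605, 820, 741 and 838 CPM with blebbistatin against 1217, 977, 1484 and 880 CPM in control, without overlap (log2 fold change -0.60 ± 0.19, adjusted p 0.275). Enolase 1 (Eno1) had 1400, 2089, 1628 and 2001 CPM against 4484, 2780, 5198 and 1656 CPM, and Ldha, lactate dehydrogenase A, 604, 1029, 696 and 770 CPM against 1957, 1231, 2257 and 712 CPM. Control library 4 lay within the blebbistatin range for both. The dextran group averaged 975 ± 499 CPM of Ldha (SD, n = 4). Cholesterol synthesis genes, with 0 higher and 1 lower of 26, stayed near the background.

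Prkag2 and Cers5 were among the lower genes with the smallest p. Prkag2, the gamma 2 subunit of AMP kinase, had 42.9, 48.2, 41.6 and 48.7 CPM with blebbistatin against 71.8, 88.0, 88.5 and 90.7 CPM in control. The groups were tight and apart, with a log2 fold change of -0.90 ± 0.13 and an adjusted p of 0.0606. Cers5, a ceramide synthase that makes palmitoyl ceramide, had 106, 116, 84.1 and 123 CPM against 219, 159, 222 and 255 CPM (log2 fold change -0.99 ± 0.17, adjusted p 0.0968). Sphk1, which turns sphingosine into its signalling phosphate, was at 8.11 to 15.4 CPM against 0.79 to 5.22 CPM, also without overlap. Their lists as a whole lay near the background, with 0 higher and 1 lower of 10 AMP kinase genes and 2 higher and 1 lower of 18 sphingolipid enzymes at an unadjusted p under 0.05.

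Lysosomal genes divided by library. Of 28 genes of lysosomes and autophagy, 10 were higher and 1 lower at an unadjusted p under 0.05, but without blebbistatin libraries 1 and 2 the counts were 5 and 2. The median log2 fold change of the list was 0.28 for blebbistatin over control. It was 0.33 for dextran over control and -0.08 for blebbistatin over dextran. Cathepsin D (Ctsd) had 1437, 1066, 281 and 247 CPM with blebbistatin against 275, 240, 224 and 245 CPM in control, and cathepsin B (Ctsb) had 1263, 1576, 191 and 200 CPM against 300, 206, 208 and 206 CPM. Both were high only in the blebbistatin libraries 1 and 2, those in which Cd68, a lysosomal glycoprotein of macrophages, had 120 and 120 CPM against 1.32 and 1.50 CPM in blebbistatin libraries 4 and 3 and 0.09 to 1.14 CPM in control. Hexa, a hexosaminidase subunit, differed less by library, at 179, 168, 172 and 133 CPM against 113, 117, 125 and 125 CPM. Plbd1, a phospholipase B-like lysosomal protein, was the member lower without overlap, at 42.9, 43.3, 38.7 and 34.1 CPM against 139, 86.7, 127 and 92.4 CPM. It had the smallest unadjusted p of all lower genes that bear a gene name and pass 5 CPM, with a log2 fold change of -1.49 ± 0.21 and an adjusted p of 0.0606. Creg1, a secreted glycoprotein found in lysosomes, was at 362 to 545 CPM against 211 to 261 CPM.

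Genes of division were counted in both directions. Of 40 genes of the mitotic cell cycle, 3 were higher and 2 lower at an unadjusted p under 0.05, but without blebbistatin libraries 1 and 2 the counts were 1 higher and 9 lower, where 9.78% of all genes were lower. Of 19 genes of cytokinesis, the step that needs myosin II, 2 were higher and 0 lower, and without those libraries 0 and 1. The proliferation marker Mki67 had 166, 182, 184 and 157 CPM with blebbistatin against 189, 151, 156 and 140 CPM in control. These groups overlapped, and the log2 fold change of 0.12 ± 0.15 had an adjusted p of 0.826. Anln, anillin of the contractile ring, was at 72.2 to 115 CPM against 43.7 to 74.9 CPM, and Septin7 at 326 to 397 CPM against 246 to 312 CPM. Ccne2, cyclin E2 of entry into DNA synthesis, was at 34.0 to 79.3 CPM against 86.5 to 139 CPM, and Rrm2, which supplies deoxynucleotides, at 193 to 404 CPM against 384 to 486 CPM. Cdkn1a, the p53 target p21, was at 80.2 to 225 CPM against 72.3 to 375 CPM. Ccnd1, cyclin D1, was at 3.12 to 73.4 CPM against 0.90 to 12.8 CPM.

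A few stress genes stood higher with blebbistatin. Atf3, an immediate stress factor, had 25.7, 10.5, 2.73 and 5.59 CPM with blebbistatin against 0.42, 0.18, 1.39 and 1.68 CPM in control, and Ier3, an early response gene, 36.2, 25.3, 22.2 and 34.7 CPM against 14.1, 8.23, 18.7 and 13.1 CPM. Neither overlapped, with adjusted p of 0.216 for both. Of 24 early response genes 4 were higher and 1 lower at an unadjusted p under 0.05, and 4 and 4 without blebbistatin libraries 1 and 2. The small heat shock proteins Cryab (24.3 to 57.5 CPM against 3.44 to 20.1 CPM) and Hspb1 (15.5 to 50.4 CPM against 8.21 to 14.8 CPM), chaperones that bind actin filaments, were also apart. Bcl2l1, which encodes an inhibitor of cell death, was at 60.1 to 113 CPM against 38.1 to 55.3 CPM.

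The remaining genes of smallest p came from scattered functions. Higher without overlap were Rpl22l1, a ribosomal protein paralogue (223 to 239 CPM with blebbistatin against 118 to 166 CPM in control), Sat1, which acetylates polyamines (52.2 to 111 CPM against 26.9 to 40.8 CPM), Riok2, a kinase of small ribosomal subunit maturation (92.2 to 115 CPM against 61.8 to 74.7 CPM), and Uap1l1, a homologue of a sugar nucleotide enzyme (55.6 to 80.5 CPM against 24.8 to 39.9 CPM). Rpl22l1 had a log2 fold change of 0.69 ± 0.12 and an adjusted p of 0.0968. Lower without overlap were Cisd3, a mitochondrial iron-sulfur protein (9.81 to 12.1 CPM against 22.5 to 26.8 CPM), Atp6v0e2, a subunit of the vacuolar proton pump (60.3 to 96.7 CPM against 126 to 151 CPM), and Epn2, an endocytic adaptor (70.2 to 98.5 CPM against 135 to 152 CPM). Cisd3 had a log2 fold change of -1.18 ± 0.19 and an adjusted p of 0.0968. Cystm1, Cnpy4, Entpd4 and Cnot6 were likewise lower in every blebbistatin library than in any control library, with log2 fold changes of -2.21 ± 0.41, -0.76 ± 0.14, -0.74 ± 0.14 and -0.85 ± 0.16 and adjusted p of 0.102 each.

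Among the 28 genes past the threshold in both limma voom with quality weights and DESeq2, further ones were Lbh, a transcriptional cofactor (14.3 to 44.6 CPM with blebbistatin against 2.98 to 8.78 CPM in control), P3h2, a collagen prolyl hydroxylase (16.6 to 30.3 CPM against 5.61 to 11.8 CPM), and Adap2 (0.91 to 2.86 CPM against 0 to 0.12 CPM). On the lower side were Apoa4, an apolipoprotein (185 to 477 CPM against 698 to 852 CPM), Tex15, known for its role in male meiosis (48.5 to 224 CPM against 349 to 460 CPM), and Ubac1 (5.04 to 9.31 CPM against 16.1 to 18.8 CPM). None of these 6 passed in edgeR, where their adjusted p was 0.102 to 0.209.

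Against granulosa cells of dextran-treated follicles, no gene passed an adjusted p of 0.05 in edgeR, while DESeq2 called 214. At an unadjusted p under 0.05, 608 genes were higher and 750 lower with blebbistatin, 3.96% and 4.88% of those tested. The higher gene of smallest p was Fhl2, at 66.2, 24.8, 74.9 and 40.6 CPM with blebbistatin against 5.58, 10.7, 6.21 and 8.22 CPM with dextran (log2 fold change 2.75 ± 0.49, adjusted p 0.240). Rhoa and Rhob, which encode small GTPases, were among the 6 lower genes of smallest p with a mean of at least 5 CPM. Rhoa, which promotes actin stress fibres, had 255, 282, 239 and 224 CPM against 347, 349, 340 and 366 CPM, and Rhob, its relative on endosomes, 59.3, 24.3, 28.1 and 35.9 CPM against 70.4, 118, 160 and 107 CPM. Both were below every dextran library, with log2 fold changes of -0.49 ± 0.08 and -1.63 ± 0.31 and adjusted p of 0.231 and 0.240. Of the 18 myosin II regulators, a list that holds both, 2 were higher and 3 lower at an unadjusted p under 0.05. Uchl1, a ubiquitin hydrolase, had 16.5, 32.0, 23.7 and 25.4 CPM with blebbistatin against 58.4, 51.9, 64.0 and 84.0 CPM with dextran, and 47.5 to 59.4 CPM in control. For Ftl1 the dextran libraries, at 2567, 2978, 2931 and 3116 CPM, lay below every blebbistatin library and above every control library, and the log2 fold change of blebbistatin over dextran was 0.38 ± 0.12 with an adjusted p of 0.385. The comparisons with control and with dextran share the blebbistatin libraries.

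The response of granulosa cells was also compared with that of oocytes from the same kind of follicle, by the interaction of cell type and blebbistatin over all 24 libraries. Of 20601 genes, 10 passed an adjusted p of 0.05, 1 higher (0.00485%) and 9 lower (0.0437%) in granulosa cells relative to oocytes, and at an unadjusted p under 0.05 the shares were 7.48% higher and 3.8% lower. Values in this paragraph are CPM of the unscaled library total. Tpm1 was the higher gene, at 443 to 799 CPM with blebbistatin against 105 to 239 CPM in control granulosa cells, and at 22.5 to 34.1 CPM against 28.0 to 29.2 CPM in oocytes. In this fit each gene had a common spread for both cell types, although Tpm1 varied more between granulosa libraries than between oocyte libraries. The difference of the log2 fold changes of Tpm1 between the cell types was 1.98 ± 0.36, with an adjusted p of 0.0460. Over 34 alternative analyses this difference stayed within 1.64 and 2.14, but Tpm1 passed in 10 and missed in 24, with adjusted p of 0.000402 to 0.428, and it missed with either other scaling (0.0549 and 0.0525) and with limma voom (0.428). Uchl1, abundant in oocytes, was at 16.5 to 31.9 CPM with blebbistatin against 48.2 to 60.4 CPM in control granulosa cells and at 1052 to 1230 CPM against 746 to 1209 CPM in oocytes. That difference was -1.39 ± 0.22 with an adjusted p of 0.0261. The other 8 lower genes (Htra4, 1700016H13Rik, Fbxl21, Kcnh1, Ocln, 9130204K15Rik, Mapk11 and Jag2) had 0 to 0.42 CPM in blebbistatin granulosa cells and 0.12 to 3.23 CPM in control granulosa cells. Kcnh1, a potassium channel gene, stood at 344 to 404 CPM against 367 to 418 CPM in oocytes, and Htra4 at 46.4 to 55.9 CPM against 49.9 to 56.0 CPM. Of the 9 lower genes, Htra4 and 1700016H13Rik passed in all 34 alternatives, and the others in 10 (Jag2) to 23 (Ocln and Uchl1). The part of the oocyte, stroma and smooth muscle markers, whose sums are given above, in these calls was not tested. Ftl1 did not pass in this comparison, with an adjusted p of 0.348 for the difference between cell types.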

How the data were processed

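RNA was sequenced from 24 libraries, and the 12 of granulosa cells were fitted together. Per the labels, salmon produced the deposited estimated counts, 1 value per gene and library. The submitters' processing notes name GRCm39 as the build. Which annotation, which version of salmon and which strand setting were used is not given in the sources used here, and a gene and its antisense partner or near-identical copies cannot be told apart with certainty. Per the labels, extraction was simultaneous for all replicates and cDNA went through 15 cycles of PCR. No molecular identifiers were used as far as the labels say, so depth, 16432298 to 22431013 counts in the 8 libraries, bears on counting error alone. No sample column was left unused (0).

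Estimated counts were rounded, filtered with filterByExpr, scaled with TMM factors and fitted with the robust quasi-likelihood test of edgeR 4.0.16 (glmQLFit and glmQLFTest; R 4.3.3), with Benjamini-Hochberg adjustment over the 15370 genes tested and a threshold of 0.05. SE is the log2 fold change over the square root of F. CPM are TMM-scaled unless said otherwise. The difference from oocytes was the interaction over all 24 libraries. Limma 3.58.1 (voom, with and without quality weights), DESeq2 1.42.0, other scalings, no filter, the replicate block, leaving out each library, and leaving out blebbistatin libraries 1 and 2 together were alternatives. The steps were tested on simulated counts, drawn independently around a common mean per gene. Those counts held no added cells of other types, so that test cannot speak to such cells here.

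The comparison, the 40 gene lists (769 distinct genes, 9 of the lists markers of cell types) and the genes named were chosen with earlier results of these data known. Named genes are the 12 per direction of smallest p with a mean of at least 5 CPM, the leading and most abundant members of each list described, anchor genes of myosin II, granulosa function and iron, genes past the threshold in both voom and DESeq2, and leading genes of the other 2 comparisons. Because voom without weights called 1 gene, voom with quality weights was used in that rule. No list was tested as a set. Replicates of a group differed by at least 22.9 chi-square units per gene with 10 or more counts, and all were kept as separate samples.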

Additional observations from a re-analysis of the deposited data

Results flagged for a closer look

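Each value here was set apart either because the highest or the lowest of the 4 libraries of a group lay far from the other 3, or because the response differed between cell types. Dixon's criterion was applied to 250 groups and marked 18, where chance marks about 1 group in 20.

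In the blebbistatin group, library 1 was far above the others for Creg1 (545 CPM), Ankrd1 (8.13 CPM), Tns3 (36.9 CPM) and Lox (212 CPM), and far below them for Prdx2 (215 CPM). Library 3 was far above for Cyp11a1 (4.34 CPM) and Col4a3 (38.4 CPM), and library 4 for Cyp19a1 (3.00 CPM) and Jag2 (0.0601 CPM, which is 1 count). Library 1 is also the library with the highest stroma and smooth muscle markers, 1110 and 848 CPM in sum, and the fewest genes with a count, 14538.

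In the control group, library 4 was far above the others for Ccn2 (3.60 CPM), Wwtr1 (47.8 CPM), Fhl1 (76.2 CPM) and Sphk1 (5.22 CPM) and far below them for Dhh (69.7 CPM). Library 1 was far above for Acta2 (146 CPM) and Ctsb (299.6 CPM) and far below for Prkag2 (71.8 CPM), and library 2 was far above for Rrm2 (486 CPM). Without these single libraries none of the genes named in this paragraph or the one before it was brought to an opposite direction except Ankrd1 and Cyp11a1.

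Among the genes of the interaction of cell type and blebbistatin, the response in granulosa cells minus that in oocytes was 1.98 for Tpm1 and -1.39 for Uchl1 on the log2 scale. For Ocln it was -7.44 and for Jag2 -5.96; these fitted values rest on groups with 0 or 1 count, depend on the small count that the fit adds, and bound nothing.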

How the results depend on the processing

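The count of genes called for blebbistatin against control, 1 in edgeR, was 1 with either other scaling, with limma voom and without robust estimation. It was 23 with no filter on low counts, 377 with DESeq2, 28 with voom with quality weights, 0 with only the groups compared and 26 without blebbistatin replicates 1 and 2, and it ranged from 0 to 115 without single libraries, with 115 without blebbistatin library 2 (35 higher, 80 lower). Against dextran the count of 0 became 1 with no filter, 214 with DESeq2 and 12 without blebbistatin replicates 1 and 2, and ranged from 0 to 3 without single libraries. At an unadjusted p under 0.05 edgeR gave 1358 genes there. For the difference between cell types the count of 10 became 6 with upper-quartile scaling, 382 with DESeq2, 18 with limma voom and 130 without blebbistatin replicates 1 and 2, and ranged from 2 to 103 without single libraries. Its 1 higher gene, Tpm1, passed in 10 of 34 alternatives.

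Equal replicate numbers were not shown to pair the libraries: same-numbered blebbistatin and control libraries correlated at 0.0065 to 0.16 in their deviations from the group means, and 2 of 4 were best matched by their own number. With the replicate block the counts were 0 against control (adjusted p of Ftl1, 0.0903) and 5 for the difference between cell types.

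Of 2746 values of named genes, 22 in 7 genes changed sign. Rock1 was -0.022 with voom, -0.0079 with voom with quality weights and -0.011 with the replicate block, and -0.17 to 0.16 without single libraries. Ankrd1 was -0.32, -1.92 and -0.29 under the same settings, -4.42 without blebbistatin replicates 1 and 2 and -4.86 to 2.73 without single libraries. Cyp11a1 was -2.16, -0.76 and -1.17, and -2.81 to 0.53 without single libraries. Srf was -1.16 with voom. With quality weights Myl12b was 0.00061 and Yap1 0.033, and Yap1 ranged from -0.41 to 0.0059 without single libraries. Ctsb was -0.22 without blebbistatin replicates 1 and 2. The cause of these changes was not tested.

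Of 880 list medians, 41 in 16 lists moved by more than the spread between blebbistatin libraries. Scaling moved the median of all genes between -0.06 and -0.03. At low counts, depth limits how closely a fold change is known.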
